A study of Homo sapiens with 8 samples.

Results

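The genes described here are 10 genes of fatty acid synthesis, desaturation, elongation and glycerolipid assembly, chosen by name: ACLY, ME1, ACACA, FASN, ELOVL6, SCD, FADS1, FADS2, LPIN2 and SREBF1. They were chosen with earlier results of these data known. All 10 had a row in the count table of 86369 Ensembl gene identifiers. Of the 10, 8 had enough counts to be tested among 13840 genes, while ME1 and ACACA did not.

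The cells were HepG2, an established human line derived from a hepatocellular carcinoma, so all values come from a single tumour-derived line. One group of 4 libraries came from HepG2 cells given a negative control short interfering RNA (siCtrl) and the other group of 4 from HepG2 cells given one against NAT10 (siNAT10). Both groups were transfected with a lipofection reagent and harvested 2 days later, and the labels name no other allele or agent. NAT10 encodes an RNA cytidine acetyltransferase, and the comparison asks which transcripts differ when it is depleted. Replicates 1 and 2 of each group form batch 1 and replicates 3 and 4 form batch 2. The labels do not say whether replicates were separate cultures, so the p-values measure only the spread between these libraries, which may be technical.

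In de novo lipogenesis, citrate exported from mitochondria is split in the cytosol to acetyl-CoA, which is carboxylated to malonyl-CoA and built into palmitate with NADPH as the reductant. Palmitate is then elongated, desaturated and esterified to glycerol to form phospholipids and triglycerides. In liver cells much of this programme is transcribed under SREBP-1c, the insulin-responsive product of SREBF1, together with ChREBP and the liver X receptors. SREBP factors bind sterol regulatory elements, commonly beside sites for NF-Y and Sp1.

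Promoter windows were read for the genes, running from 250 bases before to 50 bases after a RefSeq transcription start (GRCh38.p14). The table held 14 windows for 9 of the 10 genes, all but FASN. Windows are shown for SCD and LPIN2, which passed the test below, and for SREBF1, which codes for the transcription factor, 5′ to 3′ on the strand of the gene. LPIN2 has 2 windows in the table, and the one that held a match is shown. Capitals mark matches on either strand to CCAAT (NF-Y), GGGCGG (Sp1), CACGTG (E-box) or TCACNCCAC (sterol regulatory element).
SCD chr10:100346983-100347282, plus strand: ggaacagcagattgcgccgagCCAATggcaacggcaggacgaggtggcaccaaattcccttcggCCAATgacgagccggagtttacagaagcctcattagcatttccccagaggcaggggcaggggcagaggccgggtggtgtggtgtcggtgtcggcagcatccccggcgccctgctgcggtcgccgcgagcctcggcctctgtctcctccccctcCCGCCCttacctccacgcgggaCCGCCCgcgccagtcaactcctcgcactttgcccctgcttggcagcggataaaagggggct
LPIN2 chr18:3013095-3013394, minus strand: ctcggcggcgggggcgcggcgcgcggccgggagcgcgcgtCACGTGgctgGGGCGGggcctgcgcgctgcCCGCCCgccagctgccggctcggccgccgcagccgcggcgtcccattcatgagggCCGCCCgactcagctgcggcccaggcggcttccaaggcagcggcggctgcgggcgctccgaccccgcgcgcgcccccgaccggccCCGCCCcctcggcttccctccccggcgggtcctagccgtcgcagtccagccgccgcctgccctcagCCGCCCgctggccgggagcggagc
SREBF1 chr17:17836937-17837236, minus strand: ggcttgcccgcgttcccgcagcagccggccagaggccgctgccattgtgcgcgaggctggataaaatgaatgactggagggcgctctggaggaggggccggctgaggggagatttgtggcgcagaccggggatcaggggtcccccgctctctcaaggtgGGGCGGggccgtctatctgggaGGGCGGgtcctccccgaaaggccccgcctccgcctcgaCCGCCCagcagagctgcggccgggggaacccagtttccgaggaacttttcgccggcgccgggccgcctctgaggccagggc

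The SCD window held 2 matches to CCAAT and 2 to GGGCGG. The LPIN2 window shown held 5 matches to GGGCGG and 1 to CACGTG, while the other LPIN2 window (chr18:3011898-3012197) held 0 to any of the motifs. The SREBF1 window held 3 matches to GGGCGG only. CCAAT occurred in 6 of the 14 windows (ACACA, ACLY, FADS2 and SCD) and in 34.6% of all 35116 windows in the table. GGGCGG occurred in 11 of 14 windows, at least once for each of the 9 genes, and in 45.0% of all windows. CACGTG occurred in 1 of 14, that of LPIN2, and in 7.26% of all windows. TCACNCCAC was in 0 of 14 windows and in 1.13% of all windows. None of the searched motifs contains another. The windows of ACLY overlap each other, as do those of FADS2, so the windows are not independent. Matches that the ACLY windows share are counted in both. All percentages are shares of windows and not of genes. These counts describe letters in a short window and do not show binding.

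The libraries held between 9731718 and 27977110 counts, and the shallowest were the siNAT10 libraries of batch 2. NAT10 stood at 39.2 to 77.8 CPM in siCtrl, where CPM is the count per 1000000 counts after TMM scaling of the library. In siNAT10 it stood at 12.2 to 22.3 CPM, which is -1.66 on the log2 scale (standard error, SE, 0.14) with an adjusted p of 2.0e-05 in the edgeR quasi-likelihood test. Of 8 hepatocyte markers (ALB, AFP, APOA1, APOB, TTR, SERPINA1, HNF4A and FGB) 7 were tested and 0 of 8 were at 0 throughout, but APOB had 0 to 7 counts per library. Of 6 markers of other cells, PTPRC and COL3A1 were at 0 in every library and ACTA2 was the most abundant, with 288 to 1102 counts. Across all 13840 genes, 315 were called at an adjusted p under 0.05, which is 2.28%, and 202 of them (1.46%) were lower in siNAT10.

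After NAT10 knockdown SCD and LPIN2 fell to 72.3% and 73.1% of their siCtrl level, and these were the 2 of 8 tested genes past the threshold, against a background of 1.46% of all genes called lower. FADS2 and ACLY had similar estimates, 68.8% and 76.9% of siCtrl, but did not pass (edgeR adjusted p 0.055 and 0.088). FASN, ELOVL6 and FADS1 stood between 84.8% and 91.2% and did not pass, and SREBF1 stood at 101.0%. The log2 fold change was below 0 for 7 of the 8 genes, against 50.3% of all tested genes, and its median over the 8 was -0.31, against -0.0024 over all tested genes. Because the genes were chosen with earlier results known, the comparisons with all genes in this paragraph are description and no test of the set. For SCD, LPIN2, FADS2 and ACLY every siNAT10 library lay below both siCtrl libraries of its batch, a pattern seen in 7.9% of all tested genes. None of the 8 showed the opposite pattern, which 6.76% of all tested genes did. At an unadjusted p under 0.05 these 4 genes passed, against 15.7% of all tested genes. With a replicate block in the fit, which pairs same-numbered libraries, all 4 were called lower, against 2.02% of all genes. The labels do not give this pairing, so the block is an alternative setting only. The same 4 were called with DESeq2, which called 601 of all genes, and without a filter on low counts, which called 595. Thinning to the smallest library called 3 of the 8 and library size alone 1. None of the 8 was called without the batch term or in either batch alone. With 1 library left out 0 to 1 were called, and SCD in none of those fits.

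In siCtrl the order of mean levels was SCD, ACLY, FASN, FADS1, SREBF1, LPIN2, FADS2 and ELOVL6, from 1054 to 11.1 CPM. The libraries tag the 3′ end of each transcript, so a count does not grow with transcript length. CPM between genes also depends on how many of a gene's reads were assigned to it, which is at or near 0 for some genes that every cell uses (below), so the order describes assigned counts. The siCtrl ranges of SCD and ACLY, of FASN and FADS1, and of FADS2 and ELOVL6 did not overlap. The neighbours ACLY and FASN had nearly the same mean, 146.1 and 145.6 CPM, and were in that order in 2 of 4 siCtrl libraries. The ranges of FADS1 and SREBF1, of SREBF1 and LPIN2, and of LPIN2 and FADS2 also overlapped, although within each of the 4 siCtrl libraries LPIN2 was above FADS2. SCD alone carried between 56.2% and 67.9% of the summed CPM of the 8 genes, lowest in the 2 siNAT10 libraries of batch 2.

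**Figure D1:**
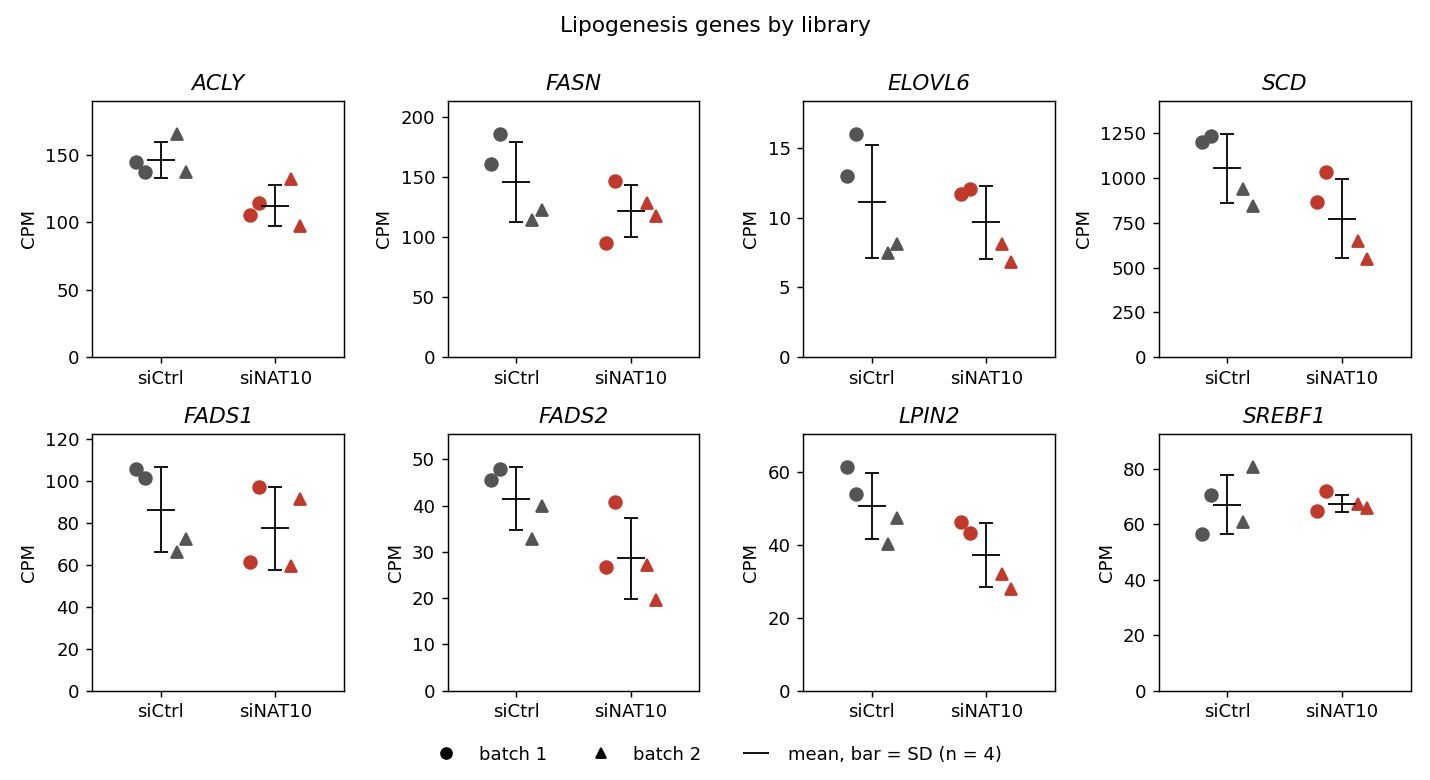
CPM of the 8 tested genes in each library, with siCtrl in grey and siNAT10 in red, circles for batch 1, triangles for batch 2, and the mean with its SD (n = 4). SCD in siCtrl lies between 846.1 and 1234 CPM and in siNAT10 between 546.1 and 1034 CPM, with the batch 2 libraries lower in both groups.

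ACLY is ATP citrate lyase, which makes the cytosolic acetyl-CoA that feeds the pathway (ENSG00000131473; GRCh38 chromosome 17, 41866917 to 41930542, minus strand). It stood at 144.7, 136.9, 165.4 and 137.2 CPM in siCtrl replicates 1 to 4 and at 105.2, 114.1, 132.3 and 97.1 CPM in siNAT10 replicates 1 to 4. All siNAT10 values were below all siCtrl values. Mean levels were 146.1 ± 13.4 CPM in siCtrl and 112.2 ± 15.1 CPM in siNAT10, where each ± is an SD over 4 libraries, as in all later means. On the log2 scale ACLY differed by -0.38 with an SE of 0.11 (edgeR adjusted p 0.088), and once the replicate number was blocked the adjusted p was 0.037. ACLY was called in 0 of 8 fits that left out 1 library, where the edgeR adjusted p ran from 0.075 to 0.22.

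ME1, the cytosolic malic enzyme that yields NADPH (ENSG00000065833; chromosome 6, 83210402 to 83431051), was listed at 0 in all 8 libraries. ACACA, the acetyl-CoA carboxylase that makes malonyl-CoA for fatty acid synthesis (ENSG00000278540; chromosome 17, 37084992 to 37406836), had 0 to 2 counts per library and 5 in all. Genes that every cell uses were also listed at or near 0 in the same table, among them TUBB with 0 counts in all, B2M with 1 and LDHA with 18. These 3 were picked after their values had been seen. The entries for ME1 and ACACA therefore say only that no reads, or almost none, were assigned to them, and no comparison between the groups was made. In GENCODE 44 no other gene has an exon over the last 500 bases of either gene.

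FASN is fatty acid synthase, the multi-enzyme protein that assembles palmitate (ENSG00000169710; chromosome 17, 82078338 to 82098294, minus strand). It stood at 160.6, 185.5, 114.4 and 122.1 CPM in siCtrl and 94.6, 146.3, 127.9 and 117.1 CPM in siNAT10. In batch 1 both siNAT10 libraries lay below both siCtrl libraries, while in batch 2 the groups overlapped. FASN differed by -0.24 on the log2 scale with an SE of 0.14 (edgeR adjusted p 0.45), and the 95% interval ran from -0.54 to 0.065. Without siNAT10 replicate 1 it was -0.066, and without siCtrl replicate 2 it was -0.14.

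ELOVL6 adds carbon units to palmitate and other saturated and monounsaturated fatty acyl chains (ENSG00000170522; chromosome 4, 110045846 to 110199199, minus strand). It was the least abundant of the tested genes, at 13.01, 15.99, 7.496 and 8.093 CPM in siCtrl and 11.71, 12.03, 8.077 and 6.844 CPM in siNAT10. The batches were further apart than the groups. For the siRNA its log2 fold change was -0.18 with an SE of 0.14 (edgeR adjusted p 0.58; 95% interval -0.48 to 0.11), and it was -0.087 without siCtrl replicate 2.

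SCD is stearoyl-CoA desaturase, which introduces the first double bond into palmitoyl-CoA and stearoyl-CoA to make palmitoleate and oleate (ENSG00000099194; chromosome 10, 100347233 to 100364826, plus strand). Its values were 1201, 1234, 936.9 and 846.1 CPM in siCtrl and 869.6, 1034, 647.3 and 546.1 CPM in siNAT10. Each siNAT10 library was below both siCtrl libraries of its own batch, although the batch 1 siNAT10 values overlapped the batch 2 siCtrl values. SCD fell from a mean of 1054 ± 192.2 CPM to one of 774.2 ± 219.5 CPM. Its log2 fold change was -0.47 with an SE of 0.11 (edgeR adjusted p 0.034; 95% interval -0.70 to -0.24). The call did not hold in any of the 8 fits that left out 1 library, where the log2 fold change ran from -0.54 to -0.39 and the adjusted p from 0.060 to 0.11. It also did not hold without the batch term (-0.45, adjusted p 0.62).

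FADS1 and FADS2 encode the delta-5 and delta-6 desaturases, which act in turn on polyunsaturated fatty acids (ENSG00000149485; chromosome 11, 61799627 to 61829318, minus strand, and ENSG00000134824; chromosome 11, 61792980 to 61867354, plus strand). In GENCODE 44 the FADS1 interval lies inside that of FADS2 on the other strand, and no other gene has an exon over the last 500 bases of either. FADS2 stood at 45.6, 47.9, 32.7 and 39.9 CPM in siCtrl and 26.8, 40.7, 27.2 and 19.7 CPM in siNAT10. Each siNAT10 library was below both siCtrl libraries of its batch, with siNAT10 replicate 2 the nearest to them. The log2 fold change of FADS2 was -0.54 with an SE of 0.14 (edgeR adjusted p 0.055; 95% interval -0.84 to -0.24), and the adjusted p was 0.023 with the replicate block. FADS2 was called in 1 of 8 fits that left out 1 library, that without siNAT10 replicate 2 (-0.69, adjusted p 0.042). In the others the adjusted p reached 0.18. It was also called after thinning to the smallest library (-0.60, adjusted p 0.043), without a filter on low counts (0.0026) and with DESeq2 (0.017). As in the main fit, FADS2 was not called in edgeR with RLE size factors (adjusted p 0.060), library size alone (0.080) or no batch term (0.51). It was also not called with a filter on a mean of at least 10 counts (0.055), in batch 1 alone (0.19) or in batch 2 alone (0.55).

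FADS1 stood at 105.6, 101.5, 66.1 and 72.1 CPM in siCtrl and 61.2, 97.2, 59.7 and 91.6 CPM in siNAT10. Replicates 2 and 4 of siNAT10 were high and replicates 1 and 3 low. Its log2 fold change was -0.13 with an SE of 0.16 (edgeR adjusted p 0.75; 95% interval -0.47 to 0.20). Leaving out a single siNAT10 library gave 0.039 (replicate 1), -0.21 (replicate 2), -0.058 (replicate 3) or -0.31 (replicate 4). Leaving out a siCtrl library gave -0.072 (replicate 1), -0.094 (replicate 2), -0.20 (replicate 3) or -0.16 (replicate 4), and FADS1 was called in none of these fits. Whether the changes of FADS1 and FADS2 differ was not tested.

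LPIN2 is lipin-2, a phosphatidate phosphatase that makes the diacylglycerol used for triglycerides and phospholipids (ENSG00000101577; chromosome 18, 2885296 to 3013144, minus strand). It stood at 61.2, 54.1, 40.3 and 47.3 CPM in siCtrl and 46.3, 43.2, 32.1 and 27.9 CPM in siNAT10. Like SCD, it was lower in both siNAT10 libraries of each batch and lower in batch 2 than in batch 1. LPIN2 fell from a mean of 50.7 ± 8.998 CPM to one of 37.4 ± 8.79 CPM. Its log2 fold change was -0.45 with an SE of 0.11 (edgeR adjusted p 0.035; 95% interval -0.68 to -0.23). The call held in 1 of 8 fits that left out 1 library, that without siCtrl replicate 3 (adjusted p 0.045), and in the other 7 the adjusted p ran from 0.057 to 0.13. It did not hold with library size alone (-0.42, adjusted p 0.054) or without the batch term (-0.44, adjusted p 0.58).

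SREBF1 encodes the SREBP-1 transcription factors (ENSG00000072310; chromosome 17, 17810399 to 17837002, minus strand). Its values were 56.4, 70.7, 60.8 and 80.5 CPM in siCtrl and 64.9, 71.9, 67.2 and 65.9 CPM in siNAT10. The siNAT10 libraries all lay inside the siCtrl range. SREBF1 had a log2 fold change of 0.014 with an SE of 0.12 (edgeR adjusted p 0.97), and the 95% interval from -0.23 to 0.26 leaves room for a level between 85.3% and 119.6% of siCtrl. Its sign changed without siCtrl replicate 1 (-0.069), siNAT10 replicate 2 (-0.030) or siCtrl replicate 3 (-0.036), and its estimate was 0.12 without siCtrl replicate 4 and 0.065 without siCtrl replicate 2. RAI1 has an exon on the other strand over the last 500 bases of SREBF1, and whether reads were counted by strand is not given in the sources used here, so this count is uncertain to that extent. The count is of the whole gene, so it does not separate SREBP-1c from other products of SREBF1. The table counts RNA and holds no measure of the processed, nuclear SREBP-1 protein.

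**Figure D2:**
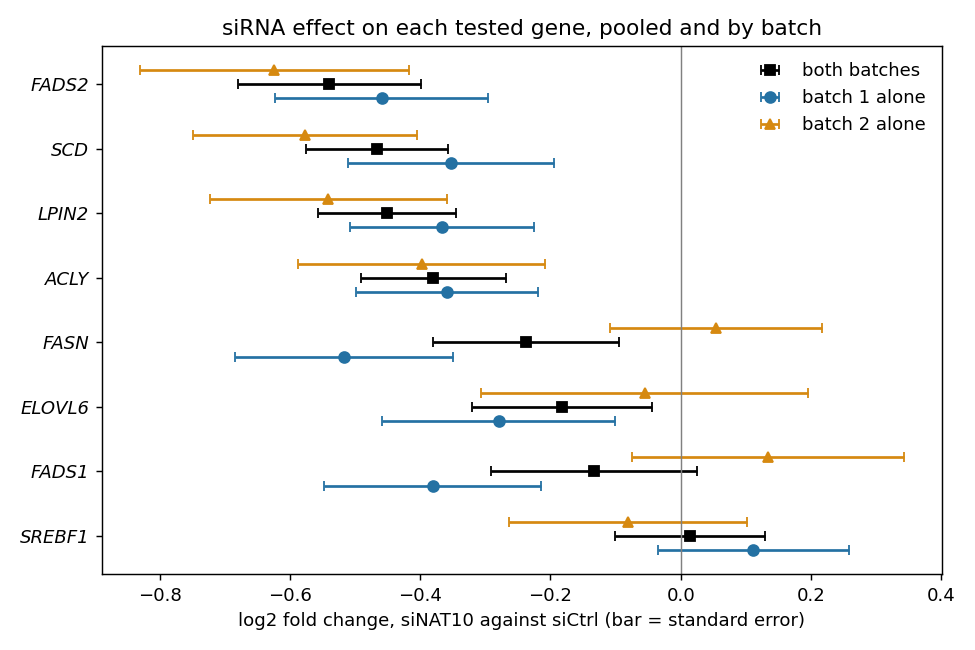
Log2 fold change of siNAT10 against siCtrl for each tested gene, in the fit of both batches (black squares) and in batch 1 (blue circles) and batch 2 (orange triangles) alone, with bars of 1 standard error. FADS2, SCD, LPIN2 and ACLY lie below 0 in both batches, between -0.62 and -0.35, while FASN goes from -0.52 in batch 1 to 0.054 in batch 2.

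The siRNA effect was then set side by side in the batches. SCD was at -0.35 in batch 1 and -0.58 in batch 2, LPIN2 at -0.37 and -0.54, FADS2 at -0.46 and -0.62, and ACLY at -0.36 and -0.40 on the log2 scale. FASN was at -0.52 and 0.054 and FADS1 at -0.38 and 0.13. In edgeR fits of 2 libraries against 2, none of the 8 genes was called in either batch, where 1.19% of all genes were called in batch 1 and 0 of them in batch 2. At an unadjusted p under 0.05, 6 of the 8 passed in batch 1, where 13.2% of 14521 genes did, and 3 of 8 in batch 2, where 7.04% of 13433 genes did. The difference between batches was tested as an interaction of batch and siRNA in edgeR, which called 0 of 13840 genes and none of the 8. FASN was the 1 gene of the 8 with an unadjusted interaction p under 0.05 (edgeR quasi-likelihood test, unadjusted p 0.042, difference 0.57 with an SE of 0.26), where 3.04% of all genes had one. The interaction of FADS1 was 0.51 with an SE of 0.30 (unadjusted edgeR p 0.11).

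The batch term of the same fit compares the batches. In batch 2 ELOVL6 was lower by a log2 fold change of -0.78 (SE 0.14, edgeR adjusted p 7.8e-04), SCD by -0.56 (SE 0.11, adjusted p 0.0015), LPIN2 by -0.49 (SE 0.11, adjusted p 0.0034) and FADS2 by -0.44 (SE 0.14, adjusted p 0.029). That is 4 of 8 genes called lower and 0 called higher, against 12.2% and 13.0% of all tested genes. FADS1 (-0.33), FASN (-0.26), ACLY (0.085) and SREBF1 (0.056) did not pass. The batch estimate was further from 0 than the siRNA estimate for ELOVL6 (-0.78 against -0.18), SCD (-0.56 against -0.47), LPIN2, FADS1, FASN and SREBF1. For FADS2 and ACLY it was nearer to 0. Whether the terms differ in size was not tested. The labels give only a batch number, so what differed between the batches is not known.

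**Figure D3:**
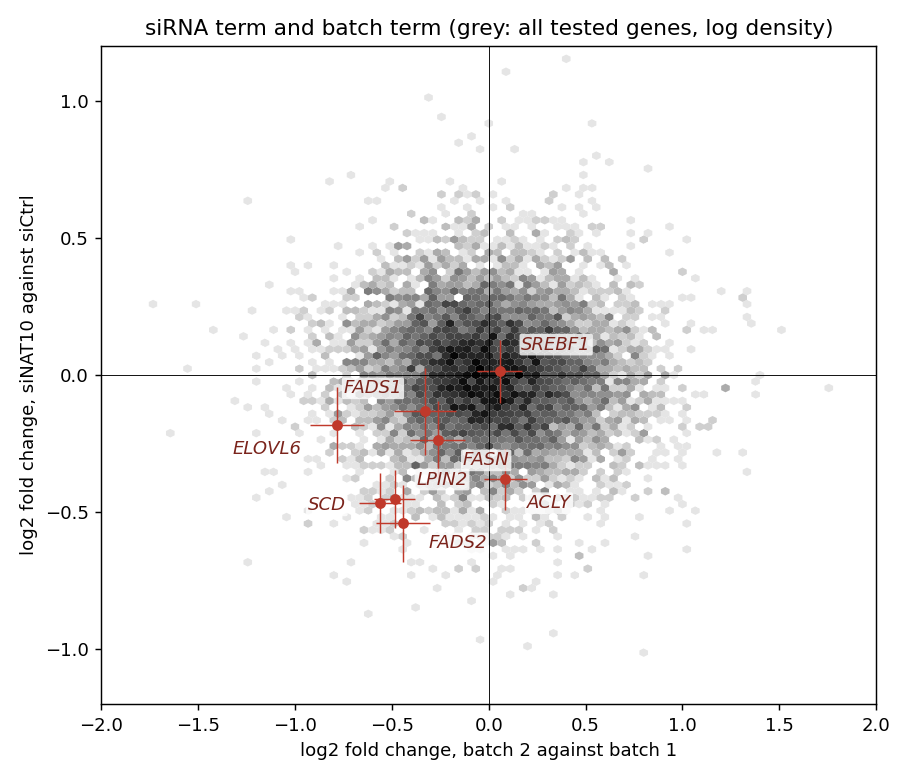
Log2 fold change of siNAT10 against siCtrl (vertical) against that of batch 2 over batch 1 (horizontal) for all tested genes within the axes (grey, darker where more genes lie, log density) and the 8 tested lipogenic genes (red, bars of 1 standard error). SCD, LPIN2 and FADS2 lie low on both axes, ACLY low on the siRNA axis with 0.085 on the batch axis, and SREBF1 near 0 on both.

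The wider pathway was read from a list of 70 genes in 9 roles, the 10 genes included, of which 58 were tested. This list was also chosen with earlier results of these data known. The edgeR test called 3 lower (SCD, LPIN2 and GPAT3), where 1.46% of all genes were, and 0 higher, where 0.816% were. At an unadjusted p under 0.05, 10 were lower, where 8.24% of all tested genes were, and 5 higher, where 7.46% were. Without the 10 genes, the median log2 fold change of the other 50 tested genes was -0.030, and 27 of them were below 0. Of these 50, the edgeR test called 1 lower (GPAT3) and 0 higher. At an unadjusted edgeR p under 0.05, 6 of the 50 were lower and 5 higher, so the other calls above came from the 10 genes already described.

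**Figure D4:**
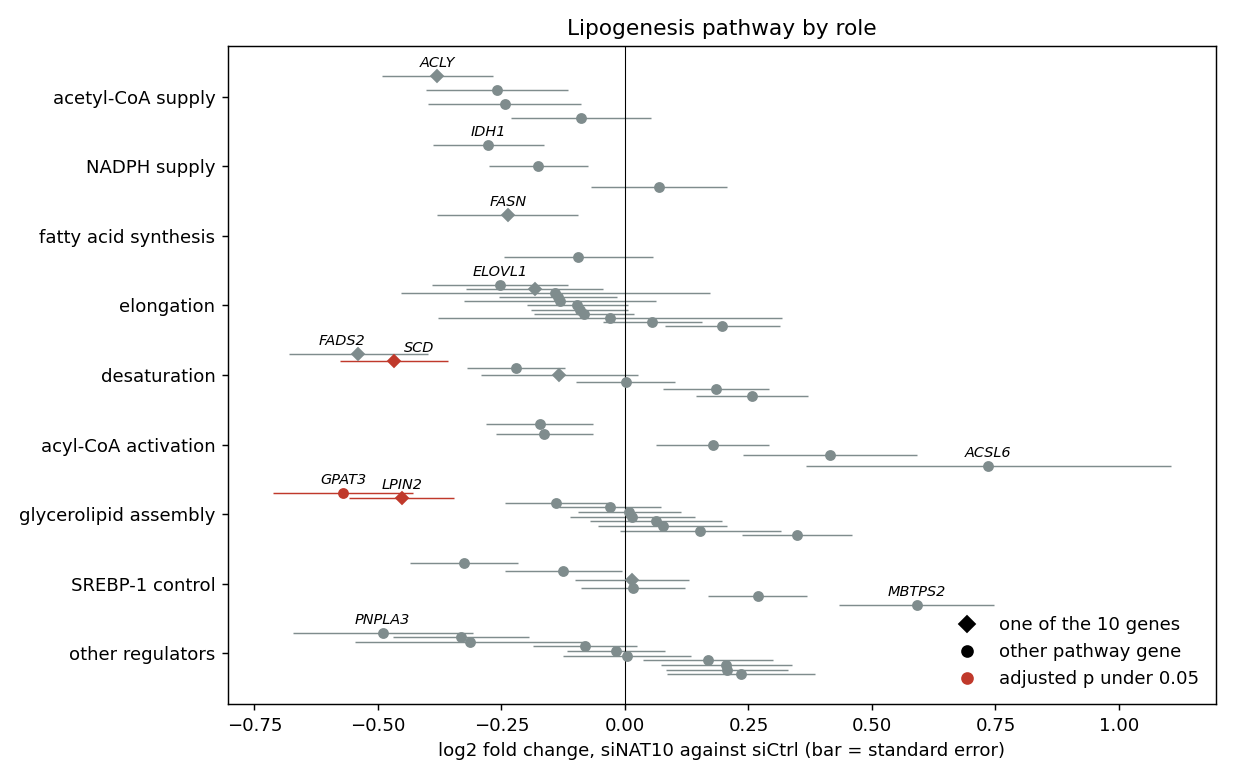
Log2 fold change of siNAT10 against siCtrl, with bars of 1 standard error, for the 58 tested genes of the pathway list arranged by role. Diamonds mark the genes described here, circles the other pathway genes, and red an adjusted p under 0.05. Red points are SCD, LPIN2 and GPAT3, all below 0. A name is given for red points and for the gene with the largest absolute change of each role.

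In acetyl-CoA supply all 4 tested genes were below 0, none called, and ACLY had the largest change. In NADPH supply 3 of 4 genes were tested and none was called. The largest change there was that of IDH1, cytosolic isocitrate dehydrogenase, at -0.28 with an SE of 0.11 (edgeR adjusted p 0.24). It was -0.17 without siNAT10 replicate 1, and -0.39 in batch 1 and -0.16 in batch 2. In fatty acid synthesis 2 of 3 genes were tested, FASN and the second carboxylase ACACB (-0.094; 0.035 without siNAT10 replicate 4), and none was called. Of 12 elongation genes 11 were tested, 9 were below 0 and none was called, with ELOVL1, an elongase of very long chains, the furthest at -0.25 (SE 0.14, edgeR adjusted p 0.40). ELOVL1 was at -0.062 without siCtrl replicate 3, and at -0.098 in batch 1 and -0.41 in batch 2.

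Of 8 desaturation genes 7 were tested, 4 were below 0, and SCD was the one called. In acyl-CoA activation 5 of 5 genes were tested and none was called. The largest estimate was that of ACSL6, an acyl-CoA synthetase, at 0.74 with an SE of 0.37 (edgeR adjusted p 0.35), from 7 to 47 counts per library. ACSL6 was at 0.48 without siNAT10 replicate 2, and at 1.34 in batch 1 and 0.13 in batch 2. In glycerolipid assembly 10 of 15 genes were tested, 4 were below 0 and 6 above, with a median log2 fold change of 0.012. Of these, 2 were called, LPIN2 and GPAT3, both lower.

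GPAT3 is a glycerol-3-phosphate acyltransferase of the endoplasmic reticulum, which starts glycerolipid synthesis (ENSG00000138678; chromosome 4, 83535914 to 83605875). It stood at 12.9, 12.7, 14.2 and 17.8 CPM in siCtrl and 10.7, 9.14, 9.57 and 8.80 CPM in siNAT10, with no overlap between the groups. GPAT3 fell from a mean of 14.4 ± 2.35 CPM to one of 9.56 ± 0.84 CPM. Its log2 fold change was -0.57 with an SE of 0.14 (edgeR adjusted p 0.044). The call did not hold in any fit that left out 1 library, where the log2 fold change ran from -0.66 to -0.47 and the adjusted p from 0.055 to 0.14. It also did not hold with RLE size factors (-0.56, adjusted p 0.0501), library size alone (-0.54, 0.063), thinning to the smallest library (-0.60, 0.094) or no batch term (-0.59, 0.30), and GPAT3 was at -0.37 in batch 1 and -0.79 in batch 2.

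Among genes that control SREBP-1, 6 of 7 were tested and none was called. MBTPS2, the site-2 protease that releases SREBP factors from the membrane (ENSG00000012174; chromosome X, 21839617 to 21885423), had the largest change of this role. It stood at 12.5, 12.5, 10.6 and 7.44 CPM in siCtrl and 14.7, 15.4, 18.2 and 17.0 CPM in siNAT10, so that all siNAT10 values were above all siCtrl values. Its log2 fold change was 0.59 with an SE of 0.16 (edgeR adjusted p 0.061), and with the replicate block the adjusted p was 0.043. MBTPS2 was at 0.27 in batch 1 and 0.96 in batch 2, with an unadjusted interaction p of 0.024 in edgeR that did not pass adjustment. INSIG1, which holds SREBP factors back in the endoplasmic reticulum, was listed at 0 in every library. Of 12 other regulators 10 were tested and none was called, the furthest from 0 being PNPLA3, a lipid droplet protein and SREBP-1c target, at -0.49 (SE 0.18, edgeR adjusted p 0.19).

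The summed level of the 8 tested lipogenic genes was 1353 to 1846 CPM in siCtrl and 972.1 to 1559 CPM in siNAT10. The summed CPM of the hepatocyte markers was 7356 to 7917 in siCtrl and 5969 to 6587 in siNAT10, also lower in siNAT10 and without overlap, with none of the 7 tested markers called. ALB, the most abundant of them, stood at -0.37 on the log2 scale (edgeR adjusted p 0.072, but called with DESeq2 at 0.0024), and AFP (-0.28) and TTR (-0.30) were, like ALB, lower in every siNAT10 library than in both siCtrl libraries of the batch. SERPINA1 stood at -0.46 with an SE of 0.37 (edgeR adjusted p 0.61), from 29 to 183 counts per library, and its groups overlapped. APOA1 stood at -0.0083, HNF4A at 0.090 and FGB at 0.37. The summed markers of other cells were 31.6 to 42.0 CPM in siCtrl and 30.2 to 37.9 CPM in siNAT10. The part of these marker levels in the result was not tested. In bulk RNA, fewer cells with a transcript and less of it per cell cannot be told apart.

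SCD had the lowest unadjusted p of the 8 genes, so the tested genes with the most similar profile to it were sought by the root mean square difference of log2 CPM over the 8 libraries after each batch mean had been subtracted. The nearest 3 of 12233 genes with a symbol were TMCO4 (0.059), SOCS5 (0.074) and SHPK (0.076), against a median of 0.32 over all. Their log2 fold changes were -0.39, -0.36 and -0.46, and none was called (edgeR adjusted p 0.19, 0.27 and 0.15). Of the lipogenic genes, ACLY was the nearest to SCD, at 0.096 and rank 24, followed by LPIN2 at 0.14 (rank 200) and FADS2 at 0.16 (rank 375). Only the batch mean was subtracted, so the siRNA difference stays in each profile. Genes with a fold change near that of SCD therefore lie near it by construction, and these ranks are no separate evidence. ELOVL6 (0.21), FASN (0.26), SREBF1 (0.30) and FADS1 (0.35) were further away, and FADS1 lay beyond the median of all genes.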

How the data were processed

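Polyadenylated RNA of 8 HepG2 libraries was profiled with a Lexogen QuantSeq 3′ kit. The design text names its FWD version and the sample protocols the REV version. The deposited table holds raw counts of reads for each Ensembl gene. The authors made these counts by aligning reads to GRCh38 with STAR 2.7.9a and counting with featureCounts, per the series' design text in the labels. Trim Galore 0.6.10 and cutadapt 3.5 are named in the submitters' processing notes. Which annotation was used, whether strand was used and how multi-mapping reads were treated are not given in the sources used here. Columns were matched to libraries by the sample descriptions, with 0 columns unused. GENCODE 44 (GRCh38) gave symbols and coordinates for 61458 of 86369 identifiers, and the unmatched ones held 1.27% to 1.65% of a library's counts.

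Genes were kept by filterByExpr (minimum count 10) and tested in R 4.3.3 with edgeR 4.0.16 (TMM, quasi-likelihood F test, batch and siRNA as additive terms), with Benjamini-Hochberg adjustment over all 13840 genes and a threshold of 0.05. Standard errors came from the F statistic. The fits were checked on simulated data. Intervals cover the spread between libraries, and no molecular identifiers are named. Alternatives were DESeq2 1.42.0, RLE or no scaling factors, other filters, no batch term, a replicate block, single batches, thinning and each library left out. Same-numbered libraries of the groups deviated together, with correlations across genes of 0.39, 0.38, 0.45 and 0.36. The batch difference was left in these correlations and same-numbered libraries share a batch, so they cannot tell a pairing from the batch. The labels give no pairing, and the block is given as an alternative where it changes a call. Replicates within a batch differed beyond counting noise (chi-square per degree of freedom from 16.8 to 27.6). Named genes were NAT10, the 10 genes, every called gene and the largest change of each role in the pathway list, and the 3 genes nearest in profile to the gene with the lowest p. The genes and lists were chosen with earlier results of these data known.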

Additional observations from a re-analysis of the deposited data

How the results depend on the processing

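The signs of SCD, LPIN2, FADS2, ACLY and ELOVL6 were the same in all 18 alternatives, and the calls were not. Of the 10 genes, 8 were tested in the main fit and 2 called, where 2.28% of all 13840 tested genes were. There were 4 called without a filter on low counts (595 of all genes, from a larger tested set) and 4 with DESeq2 (601). The replicate block called 4 (454 of all genes). Thinning called 3, with FADS2 added (182 of all genes), and library size alone called 1 (287). None of the 10 was called without the batch term (15 of all genes) or in batch 1 (173 of 14521) or batch 2 (0 of 13433) alone. With 1 library left out, 0 to 1 were called (75 to 286 of all genes). SCD was not called without the batch term (-0.45), in batch 1 (-0.35) or batch 2 (-0.58) alone, or with 1 library left out (-0.54 to -0.39). LPIN2 was not called with library size alone (-0.42), without the batch term (-0.44), in batch 1 (-0.37) or batch 2 (-0.54) alone, or in 7 of 8 fits with 1 library left out (-0.50 to -0.39). Of the pathway list, 3 genes were called lower, against 5 without a filter, 5 with DESeq2, 5 with the replicate block, 1 with library size alone, 0 without the batch term or in either batch, and 0 to 1 with 1 library left out. MBTPS2 was the 1 gene of that list called higher without a filter, with DESeq2 and with the replicate block. Over all genes 315 were called (113 higher, 202 lower). The counts were 595 (227 and 368) without a filter, 601 (256 and 345) with DESeq2, 15 (1 and 14) without the batch term, 173 (63 and 110) in batch 1, 0 in batch 2 (946 at an unadjusted p under 0.05) and 182 (63 and 119) after thinning. With the replicate block 175 were higher, and with library size alone the split was 138 higher and 149 lower. With 1 library left out the counts ran from 75 to 286 (28 to 107 and 47 to 179). Signs reversed for FASN (0.054), FADS1 (0.13) and SREBF1 (-0.081) in batch 2, for FADS1 without siNAT10 replicate 1 (0.039; range with 1 library left out -0.31 to 0.039), and for SREBF1 (range -0.069 to 0.12) without siCtrl replicate 1 (-0.069), siNAT10 replicate 2 (-0.030) or siCtrl replicate 3 (-0.036). ACACB ran from -0.24 to 0.035 with 1 library left out. The interaction of ACLY was 0.025 with library size alone, and 15 interactions were called without a filter. Fits of 1 batch or without a library hold fewer samples; for the other settings the cause was not tested. The replicate block changed no call of the 10 genes other than those of FADS2 and ACLY. Each batch alone has 2 libraries a group.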
